A study of Mus musculus with 6 samples.

Results

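The TRIM genes of the mouse were examined in bone marrow mesenchymal stem cells (BMMSCs) with and without knockdown of Tet1 and Tet2. The members were taken by name, as every row of the expression table whose symbol is Trim followed by a number and at most 1 letter, which gave 68 genes of 36870 distinct symbols. RNA-seq had been performed on 3 control libraries and 3 Tet1/Tet2 siRNA libraries. The cells were adherent cells grown out of C57BL/6 femur and tibia marrow and are given as passage 2 in the sample labels and passage 1 in the methods. The control cells received a non-targeting siRNA by the labels and vehicle by the sequencing methods, and the treated cells received siRNAs against both Tet1 and Tet2. The labels do not say whether the 3 libraries of a group came from separate animals or cultures, so p-values measure only the spread between these libraries, which may be technical.

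TRIM proteins carry a RING finger, 1 or more B-boxes and a coiled coil, and most act as ubiquitin ligases. The domain that follows the coiled coil differs between members and directs each protein to its targets, which range from viral capsids to chromatin and microtubules. A subset is known as interferon-stimulated genes: interferon signalling induces them through the interferon-stimulated response element, and their products sense virus, restrain it or tune the pathways of RIG-I and NF-kB. Rodents carry an expanded group of such genes on chromosome 7, related to the retroviral restriction factor TRIM5. Other members, such as Trim28 in gene silencing or the muscle RING fingers, have no known tie to interferon.

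Interferon-response genes were far lower in the Tet1/Tet2 siRNA libraries, and the question addressed here was which TRIM genes fell with them. A list of 52 interferon-response genes outside the TRIM family, written by hand with earlier results of these libraries known, served as the yardstick. All 50 of those tested were lower with an adjusted p under 0.05 (limma on log2(RPKM + 1), Benjamini-Hochberg adjustment), beside 29.8% of all genes tested. Their log2 fold changes ran from -5.05 for Irf7 to -0.62 for Uba7, with a median of -2.10. Uba7 alone sets the smallest fall of the list, as the next smallest was -0.99 for Psmb8. RPKM counts the reads on a gene relative to how long the gene is and how many reads of its library were mapped. Adding a pseudocount of 1 understates the change of genes at low RPKM, so the ratio of mean RPKM is also given as a plain fold.

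Of the 68 TRIM genes, 43 reached a mean of 0.1 RPKM over the 6 libraries and were tested. Each of the 43 also had a mean of at least 0.145 RPKM in either group taken alone. Of these, 23 had an adjusted p under 0.05, with 19 lower and 4 higher after Tet1/Tet2 siRNA, and 20 did not pass. The split was 15 lower and 7 higher with quantile normalization, and 20 lower and 1 higher with each library brought to a common sum. Among all 13266 genes tested, 44.5% passed in either direction, 29.8% lower and 14.7% higher, against 44.2% and 9.30% of the TRIM genes. The median log2 change was -0.28 over the TRIM genes tested and -0.09 over all genes tested. The TRIM median was -0.17 after median ratio scaling or without control replicate 3, -0.084 after quantile normalization, where that of all genes was 0.06, and -0.063 with no expression minimum. By the thresholds that the study set for altered genes, an unadjusted p under 0.05 with a fold over 2, 5 TRIM genes were lower and 0 were higher, where the background was 5.63% lower and 0.95% higher. This fold is on the log2(RPKM + 1) scale, and with a pseudocount of 0.01 there were 8 lower and 1 higher. In 21 TRIM genes every siRNA library lay below every control library and in 5 every one lay above, where 35.9% and 19.8% of all genes tested did so. The summed RPKM of all 68 members was 587.2, 595.8 and 635.1 in the controls and 409.5, 420.9 and 434.9 after siRNA.

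**Figure D1:**
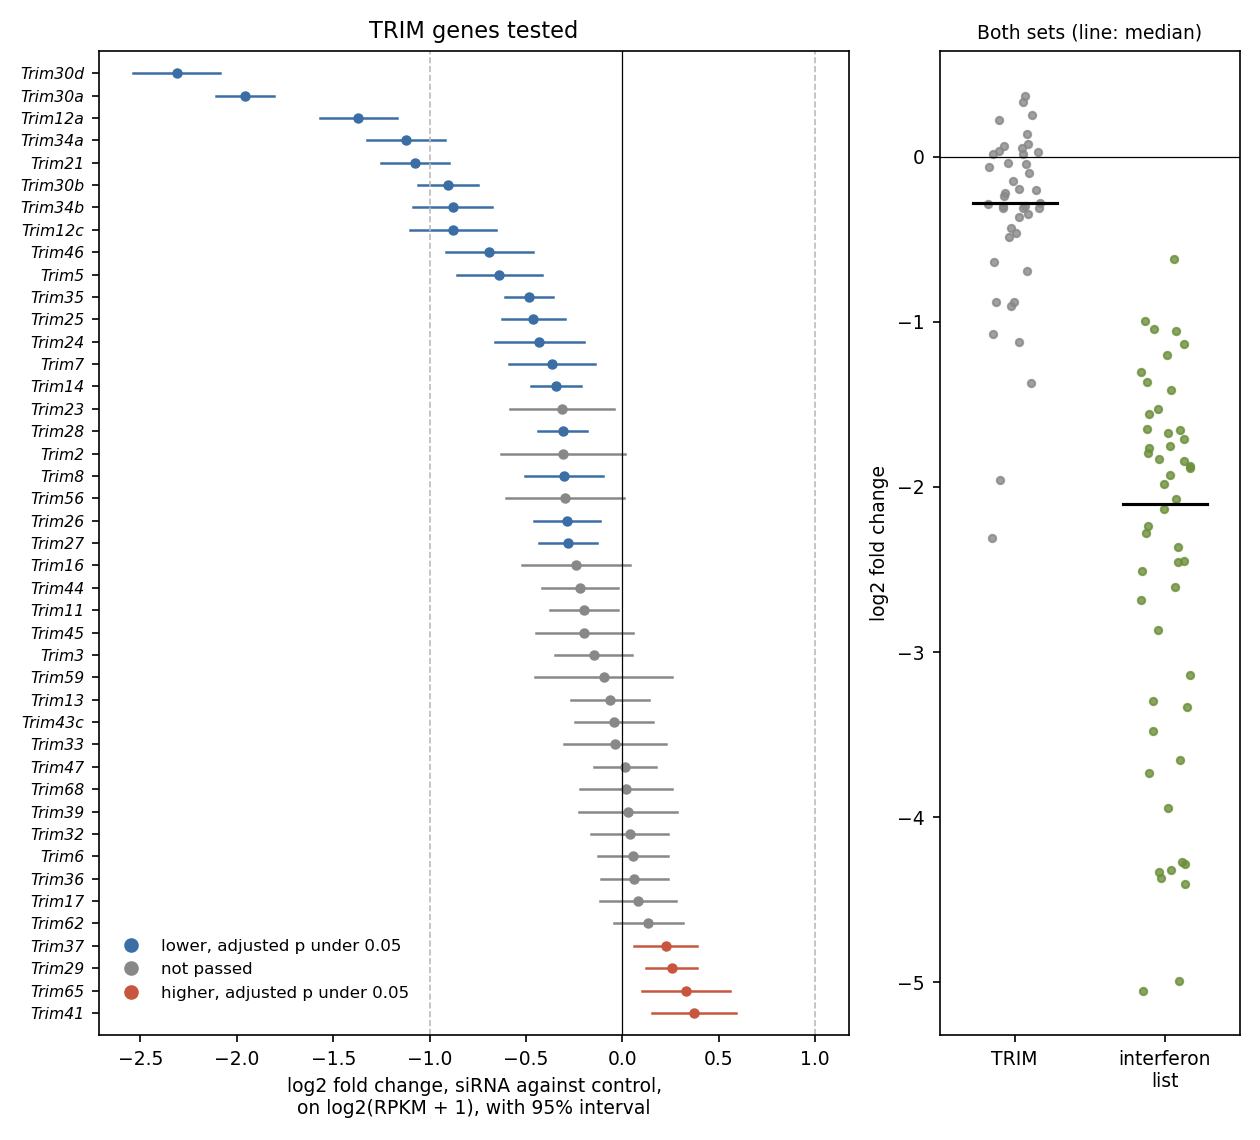
Left, log2 fold change of the 43 TRIM genes tested, siRNA against control, with its 95% interval from limma, coloured by the call; dashed lines mark a fold change of 2. Right, the same values beside those of the 50 interferon-response genes, where each point is a gene and the line is the median. At or past the smallest fall of the interferon list, that of Uba7, lie 10 TRIM genes, and 33 lie short of it. On this log2(RPKM + 1) scale Trim30b, Trim34b, Trim12c, Trim46 and Trim5 pass Uba7 alone, and 49 of the 50 list genes fell by more than each of them. The pseudocount compresses the falls of genes at low RPKM, such as Trim30b, whose mean was 7.49-fold lower.

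The libraries differed in other ways as well. Tet2 went from 3.45 ± 0.785 RPKM (SD, n = 3) in the controls to 0.266 ± 0.0817 RPKM (SD, n = 3) after siRNA, and Tet1 was under 0.1 RPKM in all of them. Of 15 stromal marker genes, 12 could be tested and 10 of them were lower, with the summed level of the list at 1148 to 1661 RPKM in the control group and 144 to 291 RPKM in the siRNA group. Thy1, Lepr and Lum, which mark marrow stroma, were each under 0.1 RPKM in both group means. Of 15 macrophage marker genes 14 were tested, of which 7 were higher and 3 lower, with summed levels of 8694 to 11624 RPKM and 16924 to 20005 RPKM. Among all genes tested, 29.8% were lower and 14.7% higher. Most of the rise in the macrophage sum lay in Lyz2, which averaged 4439 RPKM in the controls and 11321 RPKM after siRNA. Ptprc, C1qa, C1qb and C1qc did not pass, and Mrc1, Fcer1g and Fcgr1 were lower. The part of these shifts in the TRIM results was not tested, and in bulk RNA fewer cells of a type and less RNA per cell cannot be told apart. The table gives no read totals. By the spacing of low values in genes with 1 annotated transcript, the libraries held about 32400000 to 38600000 reads. The estimate was chosen so that low values came nearest to whole reads. Within 0.1 of a whole read lay 51.6% to 57.3% of them, where 20% would by chance without that choice.

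The interferon-stimulated response element carries TTTC, any 2 bases and TTTC again, or on the other strand GAAA, any 2 bases and GAAA. The RefSeq windows from 250 bases before to 50 bases after each gene's start (GRCm38.p6) were searched for them on both strands. Such a window was present for 53 of the 68 TRIM genes, and 9 of the 53, or 17.0%, held the letters, against 3.99% of the 27025 genes in the table and 42.5% of the 40 interferon-list genes with a window. Of these 9 genes 8 were lower after siRNA, beside 36.4% of the 22 tested TRIM genes with a window and no letters. Among all genes tested, 29.8% were lower. The stretches of 30 bases around the letters are shown for the 9 genes. They run 5′ to 3′ in the direction of the gene, and the capitals mark the letters searched.
Trim30d, chr7:104507871-104507900, minus strand: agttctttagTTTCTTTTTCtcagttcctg
Trim30a, chr7:104465210-104465239, minus strand: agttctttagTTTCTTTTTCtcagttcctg
Trim12a, chr7:104315466-104315495, minus strand: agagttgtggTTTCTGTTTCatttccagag
Trim5, chr7:104288136-104288165, minus strand: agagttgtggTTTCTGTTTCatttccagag
Trim12c, chr7:104353359-104353388, minus strand: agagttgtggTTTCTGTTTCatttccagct
Trim34a, chr7:104244457-104244486, plus strand: tggtttggagTTTCAGTTTCttttctctgc
Trim21, chr7:102565447-102565476, minus strand: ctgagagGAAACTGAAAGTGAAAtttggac
Trim26, chr17:36836979-36837008, plus strand: cttccgaTTTCACTTTCCTTTTCtcgggcc
Trim2, chr3:84212791-84212820, minus strand: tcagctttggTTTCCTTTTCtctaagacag

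The stretches of Trim30d and Trim30a were identical over 30 bases, as were those of Trim12a and Trim5, and Trim12c matched these last genes at 28 of 30 bases, so the genes are not independent examples. Distances are counted from the RefSeq start on which each window was set, which for Trim2, Trim5, Trim12a and others is not the outer end of the gene. The letters began 41 bases before that start in Trim30d, 36 in Trim30a, 49 in Trim5, 29 in Trim12c and 160 in Trim26. In Trim12a and Trim34a they began at base 11 counted from it as base 1, in Trim21 at base 14 and in Trim2 at base 29. Trim21 and Trim26 each held 2 overlapping copies, and Trim30a held the letters at another of its starts as well. The letters in a window are a description and do not show that a factor was bound there.

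The genes of the chromosome 7 group fell together. The group holds 10 members between Trim6 and Trim30d, of which 9 could be tested and 8 were lower. Of the 34 tested TRIM genes outside the group 11 were lower (32.4%), beside 29.8% of all genes tested. Trim30d lies on chromosome 7 of GRCm38 from 104470014 to 104507853. It had 31.8, 34.3 and 40.7 RPKM in the controls and 5.98, 6.285 and 6.75 RPKM after siRNA. Every siRNA value was far under the lowest control value. This was the largest fall of the 43 TRIM genes on the log2(RPKM + 1) scale, a 5.62-fold lower mean with a log2 change of -2.31 (SE 0.10, limma adjusted p = 1.94e-06), and 22 of the 50 interferon-list genes fell by more.

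Trim30a, from 104409025 to 104465193, is known to restrain NF-kB activation after Toll-like receptor signals. It had the highest mean level of the TRIM genes in the control cells, just above Trim28, at 63.0, 69.5 and 71.5 RPKM, against 17.0, 17.0 and 16.4 RPKM after siRNA. The siRNA libraries lay within 1 RPKM of each other and the groups were far apart. The log2 change was -1.96 (SE 0.07, limma adjusted p = 6.67e-07), a 4.06-fold lower mean. Trim30b, a further paralog from 104355398 to 104358646, was at 1.09, 1.13 and 1.28 RPKM in the controls and at 0.159, 0.186 and 0.122 RPKM after siRNA. Because it was expressed at a low level, its log2 fold change on the pseudocount scale was -0.91 (limma adjusted p = 3.18e-05), although its mean was 7.49-fold lower. Trim30c, between Trim30b and Trim30a, stood at the lowest listed value of 0.001 RPKM in all 6 libraries.

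Trim12a and Trim12c, relatives of TRIM5, are known for their likeness to a factor that binds incoming retroviral capsids. Trim12a, from 104299893 to 104315558, had 15.4, 15.0 and 13.3 RPKM in the controls and 4.71, 5.34 and 4.99 RPKM after siRNA. Its log2 change was -1.37 (SE 0.09, limma adjusted p = 1.45e-05). Trim12c, from 104338754 to 104353358, was at 12.1, 14.5 and 14.6 RPKM and at 6.77, 6.56 and 7.64 RPKM. Both genes had similar levels in the control cells and neither overlapped between the groups. The mean of Trim12c was 1.96-fold lower, with a log2 change of -0.88 (limma adjusted p = 0.000195).

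Trim34a, from 104244448 to 104262244, was at 10.3, 11.6 and 11.2 RPKM in the controls and 4.43, 4.97 and 4.22 RPKM after siRNA. Trim34b, from 104329471 to 104336617, was at 3.71, 3.72 and 3.23 RPKM and at 1.47, 1.345 and 1.60 RPKM. Their folds were close, at 2.43 and 2.42, and their log2 fold changes were -1.12 (adjusted p = 3.85e-05) and -0.88 (limma adjusted p = 0.000121). The gene that the table lists as Trim5, from 104263386 to 104288254, fell less, from 3.41 ± 0.283 RPKM (SD, n = 3) down to 1.84 ± 0.220 RPKM (SD, n = 3), with a log2 change of -0.64 (limma adjusted p = 0.000969).

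Trim6, which stands at one end of the group from 104218795 to 104235152 and is known to promote IKKε signalling after interferon, did not follow. It was at 0.197, 0.231 and 0.363 RPKM in the controls and 0.213, 0.383 and 0.343 RPKM after siRNA, so that the groups overlapped. Its log2 change was 0.06 (95% interval -0.13 to 0.24, limma adjusted p = 0.604), at a level where the pseudocount compresses any change.

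**Figure D2:**
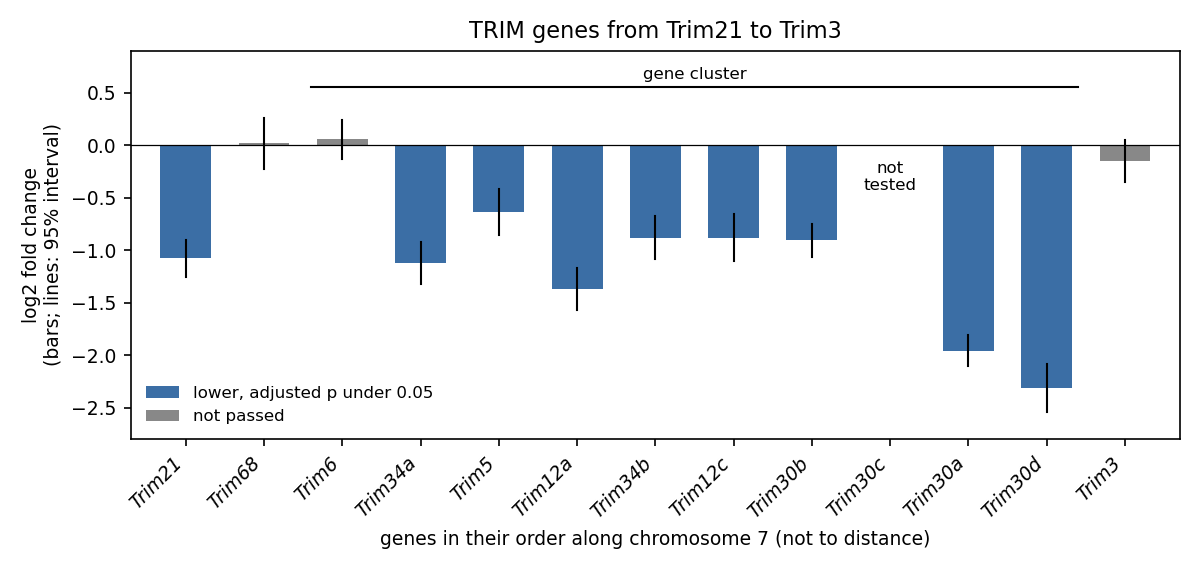
Log2 fold change of the TRIM genes from Trim21 to Trim3 in their order along chromosome 7, not drawn to distance; bars are the fitted change, lines the 95% interval from limma, and blue marks an adjusted p under 0.05. The 8 lower genes of the group stand between Trim6 and Trim3, which did not pass, and Trim30c had too little signal to be tested.

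Reads of these paralogs could have been assigned to the wrong copy. Among the stretches of 100 bases in the longest protein-coding GENCODE M21 transcript of each gene, 22.6% of those of Trim34a were also in Trim34b, and 32.6% the other way. For Trim5 the shared share was 12.7%, for Trim12a 8.38% and for Trim12c 7.64%, while it was 5.53% for Trim30d and 4.79% for Trim30a. The Trim12a transcript used here had 1531 bases, where the longest annotated one has 3730, so its share does not cover that longer transcript. Stretches of Trim12c were also found in transcripts of Trim12a and Trim5. Trim6, Trim30b, Trim30c and Trim21 shared none (0 stretches) with any other gene. By these shares the values of Trim34a and Trim34b are the least certain as separate measurements. How the authors treated reads that match several places is not given in the sources used here.

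Trim21 lies on the same chromosome outside the group, from 102557920 to 102565482, and encodes the cytosolic antibody receptor also known as Ro52. It was at 14.1, 13.8 and 13.5 RPKM in the controls and 6.20, 6.335 and 5.58 RPKM after siRNA. The log2 change was -1.08 (SE 0.08, limma adjusted p = 2.40e-05), a 2.29-fold lower mean. Trim68, the nearest TRIM gene in the annotation from 102677579 to 102687335, encodes a relative that was first described as a similar autoantigen. It stayed at 2.23 ± 0.339 RPKM in the controls and 2.26 ± 0.240 RPKM after siRNA (SD, n = 3), with an interval of the log2 fold change from -0.22 to 0.26 and a limma adjusted p of 0.898.

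**Figure D3:**
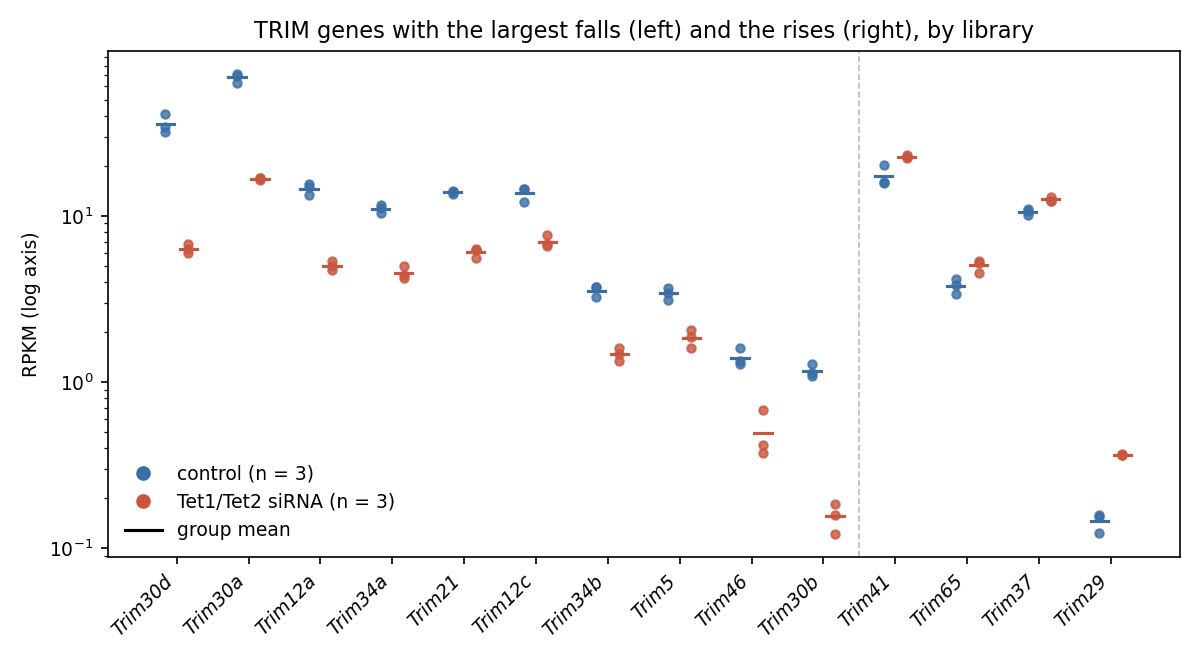
RPKM by library on a log axis for the 10 TRIM genes whose fall reached the range of the interferon list, left of the dashed line, and the 4 TRIM genes that were higher, right of it; each point is a library and the short line is the group mean (n = 3). In none of the 14 genes do the groups overlap.

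Trim46 was the only gene among the 10 largest falls that is neither in the chromosome 7 group nor known as an antiviral gene. It organizes microtubules at the start of the axon in neurons. It was at 1.28, 1.34 and 1.59 RPKM in the controls and 0.421, 0.376 and 0.680 RPKM after siRNA. The mean was 2.85-fold lower, and the log2 change was -0.69 (SE 0.10, limma adjusted p = 0.000735).

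Several TRIM genes of the interferon and RIG-I pathways fell by less than any gene of the interferon list. Trim25, which attaches ubiquitin in the RIG-I pathway, was at 34.3, 35.6 and 40.2 RPKM in the controls and 26.0, 26.6 and 26.4 RPKM after siRNA. The groups did not overlap, but the mean was lower by no more than 1.40-fold (log2 fold change -0.46, limma adjusted p = 0.00107). Ddx58, the gene of RIG-I, fell from 40.2 ± 1.29 RPKM to 6.50 ± 0.0712 RPKM in the same libraries (SD, n = 3). Trim14, a mitochondrial adaptor of the same pathway, went from 31.3 ± 0.926 RPKM to 24.5 ± 0.408 RPKM (log2 fold change -0.34, limma adjusted p = 0.00164). Trim26, which is located in the MHC region (chromosome 17, 36837123 to 36859398), averaged 17.1 ± 1.13 RPKM and 13.9 ± 0.663 RPKM (log2 fold change -0.29, limma adjusted p = 0.0148). Without siRNA replicate 1 or siRNA replicate 2 its adjusted p was above 0.05.

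Trim56, a ligase tied to STING signalling, was at 3.81, 4.05 and 5.40 RPKM in the controls and 3.05, 3.16 and 3.96 RPKM after siRNA. The groups overlapped and the difference did not pass (log2 fold change -0.30, 95% interval -0.60 to 0.01, limma adjusted p = 0.104), although it did with the replicate number as a block (limma adjusted p = 0.0191). Trim65, which activates MDA5, was higher instead, at 4.16, 3.83 and 3.40 RPKM and then 4.54, 5.34 and 5.24 RPKM (log2 fold change 0.33, limma adjusted p = 0.0262). Trim38 and Trim69 were under the minimum of 0.1 RPKM. Trim69 was at 0.063, 0.23 and 0.109 RPKM in the controls, about 4, 13 and 6 reads by the estimated depth. It was listed at 0.015, 0.001 and 0.001 RPKM after siRNA, about 1, 0 and 0 reads.

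Of the 8 tested genes that had been put down as interferon-signalling and antiviral, 5 were lower and 1 was higher. Trim5 and Trim6 were counted here, although they lie in the chromosome 7 group by position. Among all genes tested, 29.8% were lower and 14.7% higher. All 7 tested genes that had been put down as the rodent antiviral cluster of chromosome 7 were lower. These were Trim12a, Trim12c, Trim34a, Trim34b, Trim30a, Trim30b and Trim30d. These groups were written with earlier results of the same libraries known and are not independent evidence.

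**Figure D4:**
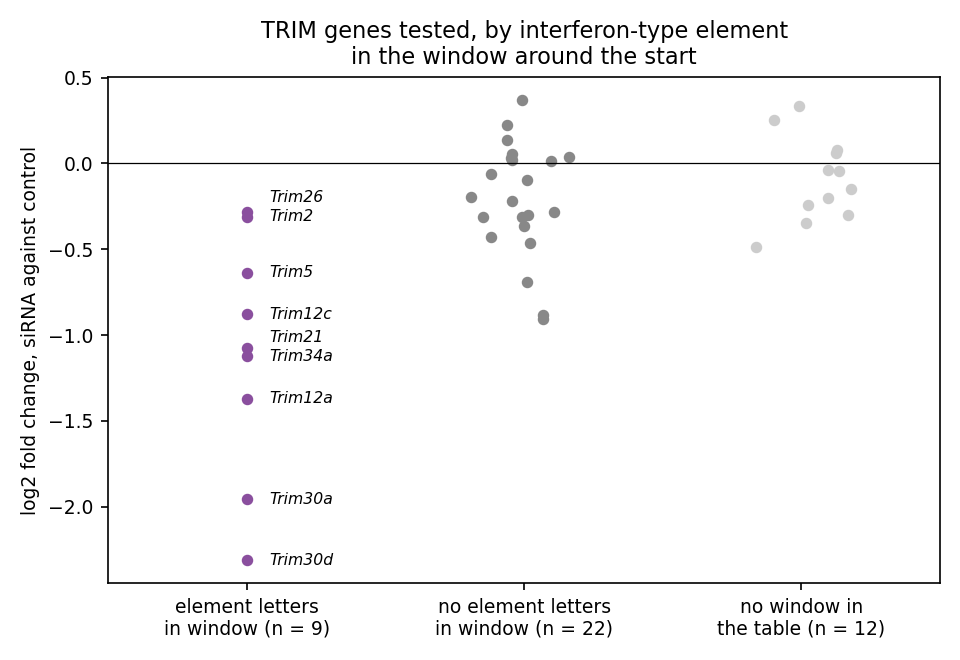
Log2 fold change of the 43 TRIM genes tested, parted by whether the window around the gene's start holds the letters of the interferon-stimulated response element; each point is a gene, spread sideways only for legibility. The 9 genes with the letters lie between -2.31 and -0.29, and the 22 genes with a window and no such letters lie between -0.91 and 0.37.

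On the log2(RPKM + 1) scale, Trim30b, Trim34b, Trim12c, Trim46 and Trim5 reached the range of the interferon list only past Uba7. By the plain fold of means, Trim30b (7.49), Trim46 (2.85) and Trim34b (2.42) also passed Psmb8 (2.01). Trim12c (1.96) and Trim5 (1.86) did not. Of the 10 TRIM genes whose fall reached the range of the list on the log2 scale, 7 held the element letters. The other 3, Trim30b, Trim34b and Trim46, did not hold them in their windows. Of the 33 other tested genes, 21 had a window and 2 of these, Trim26 and Trim2, held the letters. Trim2, a neuronal ubiquitin ligase with an NHL repeat domain, was at 1.29, 1.115 and 2.005 RPKM in the controls and 0.886, 0.832 and 1.21 RPKM after siRNA, and the difference did not pass (limma adjusted p = 0.106) except with the replicate number as a block (limma adjusted p = 0.0168). Of the 22 TRIM genes under the expression minimum that had a window, none held them (0 genes).

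Of the 3 tested genes of chromatin silencing and transcription, 2 were lower, with a median of -0.31 on the log2 scale. Among all genes tested, 29.8% were lower and the median was -0.09. Trim28, also called KAP1, is the corepressor that KRAB zinc finger proteins use to silence retroelements. It was at 68.1, 64.7 and 67.5 RPKM in the controls and 52.0, 54.5 and 54.6 RPKM after siRNA. The groups did not overlap and the mean was 1.24-fold lower (log2 fold change -0.31, limma adjusted p = 0.00236). Trim24, a cofactor of nuclear receptors, went from 5.36 ± 0.394 RPKM to 3.73 ± 0.457 RPKM (SD, n = 3, log2 fold change -0.43, limma adjusted p = 0.0092). Trim33, a ligase acting on Smad4 in TGF-β signalling, was at 4.396 ± 0.557 RPKM and 4.26 ± 0.554 RPKM, with an interval from -0.30 to 0.22 on the log2 scale (limma adjusted p = 0.807). Trim66 was under the minimum.

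Among the other lower genes, Trim35 was the most abundant, at 66.2, 63.6 and 64.8 RPKM in the controls and 44.6, 47.0 and 46.5 RPKM after siRNA (log2 fold change -0.49, limma adjusted p = 0.000204). Trim35 is a ligase with a role in cell death and in interferon production. Trim8, which acts on NF-kB signalling, was at 47.1 ± 3.74 RPKM and 38.1 ± 3.81 RPKM (SD, n = 3, limma adjusted p = 0.0239), and lost its call without siRNA replicate 1 or siRNA replicate 2. Trim27, a ligase found with the retromer on endosomes, was at 13.6 ± 0.458 RPKM and 10.97 ± 0.0887 RPKM (limma adjusted p = 0.00929). Trim7, a ligase that binds glycogenin, was at 3.64 ± 0.420 RPKM and 2.60 ± 0.172 RPKM (limma adjusted p = 0.0166). Its adjusted p was above 0.05 without control replicate 1, control replicate 2 or siRNA replicate 2.

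The 4 higher genes changed by at most 0.37 on the log2(RPKM + 1) scale. Trim41, on chromosome 11 from 48806403 to 48818199 beside Trim7 (48826138 to 48851192), was described as a ligase of protein kinase C. It was at 15.8, 16.1 and 20.2 RPKM in the controls and 22.2, 23.1 and 22.6 RPKM after siRNA. Control replicate 3 was nearest to the siRNA libraries, and the log2 change was 0.37 (SE 0.10, limma adjusted p = 0.0139). Trim37, which limits centriole duplication and is mutated in mulibrey nanism, was at 10.1, 10.7 and 11.04 RPKM and at 12.9, 12.4 and 12.3 RPKM (log2 fold change 0.22, limma adjusted p = 0.0316). Trim29, which is mainly known from epithelia, was at 0.155, 0.123 and 0.158 RPKM and at 0.372, 0.362 and 0.366 RPKM, a 2.52-fold higher mean at a very low level (log2 fold change 0.26, limma adjusted p = 0.00714). Only Trim29 kept its call in every fit that left out 1 library. Trim41 lost it without control replicate 2 or siRNA replicate 2, Trim65 without control replicate 2, control replicate 3, siRNA replicate 2 or siRNA replicate 3, and Trim37 without any 1 library except control replicate 3.

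A further 20 tested genes did not pass. Of these, Trim47 was the most abundant, at 33.9, 29.4 and 33.3 RPKM in the controls and 32.2, 32.0 and 33.3 RPKM after siRNA. The values of the groups were interleaved, and the interval of the log2 fold change ran from -0.15 to 0.17. Trim32, a ligase with NHL repeats that is mutated in a limb-girdle muscular dystrophy, was at 6.19, 6.04 and 6.99 RPKM and at 6.34, 6.475 and 6.97 RPKM (interval -0.16 to 0.24). Trim39, Trim13 and Trim59 also had means near each other in both groups, at 3.60 to 4.185 RPKM. Trim59 was the least certain of these, at 2.86, 4.81 and 4.26 RPKM in the controls, with an interval of the log2 fold change from -0.45 to 0.26. Trim3, an NHL relative of Trim2, was at 12.9 ± 0.920 RPKM and 11.5 ± 0.991 RPKM (limma adjusted p = 0.196).

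For Trim23, Trim44, Trim56, Trim16 and Trim2 the call depended on whether the replicate number entered the fit. In the fit with the replicate number as a block the adjusted p from limma was 0.0287 for Trim23, 0.0227 for Trim44, 0.0191 for Trim56, 0.0421 for Trim16 and 0.0168 for Trim2, all lower after siRNA, and 24 TRIM genes were then lower. Trim23 also passed without control replicate 1 or siRNA replicate 3, and Trim44 without control replicate 1. The remaining genes that did not pass were Trim11, Trim45, Trim62, Trim36, Trim17 and Trim43c, whose log2 fold changes lay between -0.20 and 0.14. After quantile normalization Trim17, Trim36 and Trim62 passed as higher (limma adjusted p = 0.0196, 0.0059 and 0.0038).

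Ratios within a library were set side by side for pairs of paralogs, chosen after their values had been seen and given as a description. The ratio of Trim30d to Trim30a was 0.505, 0.493 and 0.569 in the controls and 0.352, 0.370 and 0.412 after siRNA. For Trim12a to Trim12c it was 1.28, 1.03 and 0.910 and then 0.696, 0.815 and 0.653. The ratio of Trim34a to Trim34b overlapped between the groups, at 2.79, 3.12 and 3.47 and then 3.01, 3.69 and 2.64.

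The 25 members not tested account for the rest of the family. Of these, 9 stood at the lowest listed value in all 6 libraries, namely Trim10, Trim30c, Trim40, Trim54, Trim55, Trim58, Trim61, Trim63 and Trim80. Trim54, Trim55 and Trim63 are the muscle RING fingers of striated muscle, and Trim10 and Trim58 are known from red cell precursors. The other 16, among them Trim9, Trim15, Trim31, Trim71 and Trim72, had means of at most 0.0718 RPKM.

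Genes that share the TRIM domains under other names were taken from a short list. Of 5 tested genes, 3 were lower and 1 was higher, beside 29.8% and 14.7% of all genes. Pml, the organizer of nuclear bodies and a known interferon-stimulated gene, was at 18.2, 17.9 and 19.7 RPKM in the controls and 7.68, 8.41 and 8.82 RPKM after siRNA. Its log2 fold change of -1.07 (limma adjusted p = 2.70e-05) stood beside that of Trim21. Mid1, a microtubule-binding ligase, went from 5.04 ± 0.691 RPKM to 3.07 ± 0.122 RPKM (limma adjusted p = 0.00273). Mefv, the gene of pyrin, rose from 1.47 ± 0.268 RPKM to 2.40 ± 0.319 RPKM (SD, n = 3, limma adjusted p = 0.0095).

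The RIG-I and STING pathway, in which several TRIM proteins act, was examined with a list of 15 genes, all of which were tested. Of these, 10 were lower and 0 were higher, where 29.8% and 14.7% of all genes tested were, and the median change was -0.64 on the log2 scale. Ddx58, Ifih1, Dhx58 and Irf7 also belong to the interferon list, so their falls are the same measurements. The sensors and the transcription factor Irf7 fell most, with Irf7 going from 271.9 ± 28.1 RPKM to 7.81 ± 4.09 RPKM (SD, n = 3). The adaptor Mavs was at 15.9 ± 0.722 RPKM and 17.5 ± 0.589 RPKM (limma adjusted p = 0.141), the kinase Tbk1 at 38.8 ± 2.29 RPKM and 39.4 ± 1.71 RPKM (limma adjusted p = 0.813), and Rnf135, a RIG-I ligase of TRIM-like make-up, at 7.09 ± 0.572 RPKM and 6.93 ± 0.281 RPKM (limma adjusted p = 0.817).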

How the data were processed

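The deposited table holds RPKM on a linear scale in 36915 rows, with a lowest value of 0.001. The authors trimmed adaptors, mapped reads to GRCm38 and estimated abundance with DNASTAR Lasergene, and their methods name the unit FPKM. The annotation release and the use of strand are not given in the sources used here. A column of the authors' own p-values was not used. Of rows sharing a symbol (37 symbols) that with the largest mean was used. The 13266 genes averaging 0.1 RPKM or more over the 6 libraries were tested, and log2(RPKM + 1) was compared with limma 3.58.1 in R 4.3.3 (lmFit, eBayes with trend), two-sided, with Benjamini-Hochberg adjustment over all genes tested. The limma script was tested on simulated data. TRIM genes were named where the adjusted p was under 0.05 or a group mean reached 1 RPKM, with values by library for those past a fold of 2, the largest rises, the chromosome 7 copies and up to 6 well expressed genes that changed least. Values by library of other genes were added after they had been seen. The members, lists and tests were chosen with earlier results of these data known. Positions and promoter windows are from RefSeq on GRCm38.p6, matched by symbol for 68 and 53 members, and transcripts are from GENCODE M21. A single gene cannot reach an exact permutation p under 0.1 with 3 libraries against 3, so no such p is given. The replicate numbers are shared by the groups in the labels. Deviations of same-numbered libraries from their group means correlated over genes with 0.149, 0.117 and 0.462 in replicates 1, 2 and 3, each over 0.1, so the numbers were also fitted as a block. This pairing rests on these values alone. Alternatives were pseudocounts of 0.1 and 0.01, no expression minimum or one of 1 RPKM, median ratio, quantile and same-sum scaling, no trend, the block, the sum of rows with the same symbol and each library left out.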

Additional observations from a re-analysis of the deposited data

How the results depend on the processing

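Of the 23 TRIM genes called, 16 stayed called in the same direction under each alternative in which they were tested, 15 lower and Trim29 higher. Trim7, Trim8, Trim26, Trim27, Trim37, Trim41 and Trim65 did not, and for all of these but Trim37, Trim41 and Trim65 the call was lost with quantile normalization as well as median ratio scaling. The number of TRIM genes with an adjusted p under 0.05 that were lower was 19 and lay between 15 and 24, and between 16 and 20 with 1 library left out. Those higher numbered 4, and 7 with quantile normalization, 1 with each library brought to a common sum and 1 to 3 with 1 library left out, where 1 was the count without control replicate 2 or siRNA replicate 2 (Trim29) and 2 the count without siRNA replicate 3. The genes lower past a fold change of 2 numbered 5, and 8 with a pseudocount of 0.1, with 0.01 and with each library brought to a common sum, each time with Trim30b, Trim34b and Trim46 added. They numbered 4 with median ratio scaling, where Trim21 fell short of that fold. With quantile normalization they numbered 3, as Trim21 and Trim34a fell short of it, and there were 5 in each fit without 1 library. With a pseudocount of 0.01, 1 gene was higher past that fold, against 0. The median log2 fold change of the TRIM genes went from -0.28 to -0.063 without a filter on low values, -0.17 after median ratio scaling and -0.084 after quantile normalization, and lay between -0.32 and -0.17 with 1 library left out, with -0.17 reached without control replicate 3. Quantile normalization moved the median of all genes tested from -0.09 to 0.06. The share of lower genes among all calls was 66.9%, and 50.4% and 42.1% after the median ratio and quantile methods. In the interferon list 50 genes were lower throughout, and 46 to 49 past a fold change of 2.

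Genes that had not passed changed sign around 0. With each library brought to a common sum the log2 fold change was -0.019 for Trim32, -0.025 for Trim39, -0.048 for Trim47 and -0.031 for Trim68. With median ratio scaling it was 0.036 for Trim13, 0.062 for Trim33 and 0.00055 for Trim59. With quantile normalization it was 0.11 for Trim13, 0.13 for Trim33, 0.084 for Trim43c, 0.043 for Trim45 and 0.087 for Trim59. With 1 library left out it lay between -0.052 and 0.097 for Trim68, -0.12 and 0.043 for Trim33, -0.046 and 0.13 for Trim39, -0.11 and 0.032 for Trim43c, -0.048 and 0.051 for Trim47, and -0.27 and 0.025 for Trim59. The replicate block changed the call of Trim2, Trim16, Trim23, Trim44 and Trim56 and of no other TRIM gene tested, and 24 were lower with it. The cause of these changes was not tested.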

Other observations

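Ubiquitin-conjugating enzymes (E2), which hand ubiquitin to TRIM ligases, were examined with a list of 14 genes. Of these, 8 were lower and 1 was higher with an adjusted p under 0.05 from limma, where 29.8% and 14.7% of all genes tested were, and the median log2 fold change was -0.29, against -0.09 over all genes tested. Ube2l6, which serves the interferon-induced modifier Isg15, fell from 83.5 ± 8.71 RPKM to 22.4 ± 2.58 RPKM (SD, n = 3). It was the only gene of the list past a fold change of 2. Ube2n, which with its partners builds the chains used in RIG-I signalling, went from 13.7 to 10.9 RPKM on average (limma adjusted p = 0.0118), and Ube2l3, a partner of other ligases, rose from 49.2 to 59.5 RPKM (limma adjusted p = 0.00996).

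Partners of Trim28 in gene silencing were examined with a list of 13 genes, and 7 of them were lower against 0 higher, beside 29.8% and 14.7% of all genes tested. The median change was -0.24 on the log2(RPKM + 1) scale, on which none passed a fold of 2 (0 genes). Setdb1, the methyltransferase that Trim28 recruits, was at 13.9 and 14.2 RPKM on average (limma adjusted p = 0.799), and Hdac2, a histone deacetylase, fell from 41.8 to 30.7 RPKM (limma adjusted p = 0.00127). Zfp57, a KRAB zinc finger protein of imprinted regions, averaged 0.522 RPKM in the controls and 0.136 RPKM after siRNA, a 3.84-fold difference at a low level (limma adjusted p = 0.00648).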
